A study of Triticum monococcum with 54 samples.

Results

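In einkorn (Triticum monococcum, a diploid wheat), 49 genes of a restricted pool of 13739 had their highest level in grain collected 200 degree days after anthesis. Their ratio was at least 2 to every other stage sampled in the same treatment. The pool and the other limits of the choice are described below. Degree days (°Cd) count accumulated temperature from the opening of the flower. The study asked how nitrogen (N) and sulfur (S) given after flowering bear on gene expression in the filling grain, and sequenced polyadenylated RNA from whole grain. The groups used here came from 2 supplies. Grain called N+S+, whose plants were given 6 mM N and 2 mM S, was sampled every 100 °Cd between 300 and 600 °Cd, and grain called N-S-, whose plants were given a solution with neither element, between 100 and 600 °Cd. Solutions ran from 200 to 700 °Cd, the grain of 100 and 200 °Cd carried the N-S- label only, and all plants, of a single seed accession, had received demineralized water alone until anthesis. Each of the 10 groups held 3 biological replicates, 30 libraries in all.

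The early weeks of a cereal grain are known as a time when the endosperm, the tissue that later stores starch and protein, becomes cellular and its cells divide. The outer layers of the grain, the pericarp, grow first and later break down, and filling with starch and storage protein follows. Transcripts that appear briefly in this window are known from several cereals, in the endosperm as well as in the maternal layers. Whole grain mixes these tissues. A lower level in bulk RNA can come from fewer cells of a type or from less RNA per cell, and these cannot be told apart here. The files pair none of the identifiers with a name or a description, so no role is given to any gene below and none of the tissues could be checked by its markers.

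Members were chosen by their own values in N-S- grain, so their peak at 200 °Cd is the selection and not a finding. The pool was the 13739 of 32047 genes that the N-S- table lists and the table of plants given N without S, as used here, does not. The latter list held 18308 genes, and why it is shorter is not given in the sources used here. Of these, the 60 with the highest stage mean were set aside, which removed genes with a mean of 1167 normalized CPM (counts put on one scale for library size) or more at some stage. Of the remaining 13679 genes, 1483 were highest at 200 °Cd, and 590 of those had a mean of at least 20 there. Only 49 also reached a ratio of 2 between the mean at 200 °Cd and the highest other stage mean, each plus 1, so the limit of 150 members was not met. The same rule gave 150 genes for a peak at 100 °Cd, where it met its limit, 20 at 300, 2 at 400, 2 at 500 and 106 at 600 °Cd. Among the genes that the table of N without S does list, it gave 77 with a peak at 200 °Cd.

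The ratio had a median of 3.09 and ran from 2.01 to 46.1, and it was at least 10 for 8 members and under 3 for 24. Just inside the limit stood TmLoc038099, with a mean of 244.9 normalized CPM at 200 °Cd against 117.7 at 300 °Cd, and TmLoc027425, with 22.2 at 200 °Cd against 10.5 at 100 °Cd. Just outside stood TmLoc028905, with 40.9 at 200 °Cd against 20.0 at 300 °Cd and a ratio of 1.998, and TmLoc030332, with 137.7 at 200 °Cd against 70.0 at 100 °Cd. The membership has no gap at its edge. With membership chosen on 2 replicates and read in the replicate left out, all 45, 46 and 56 genes so chosen were highest at 200 °Cd in that replicate. The ratio was again at least 2 for 41, 42 and 36 of them, without replicate 1, 2 and 3 in turn.

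The deposited raw counts summed to 1344965 to 5356417 per library. Levels below are CPM scaled jointly over the 30 libraries, because the deposited normalization was set within each table. The 3 N-S- libraries of 500 °Cd stood apart: their replicates correlated at 0.913 to 0.923 across genes, against 0.953 to 0.985 in the other groups, and 14657 to 16112 genes had a count in them, against 16215 to 20220 elsewhere. The libraries of 100, 200 and 300 °Cd shared lane 3, those of 400 °Cd and the N-S- ones of 500 °Cd lane 4, and the N+S+ ones of 500 °Cd and all of 600 °Cd lane 5. The contrast of 200 °Cd with 100 and 300 °Cd in N-S- grain therefore lies within a lane, while that with 400, 500 and 600 °Cd crosses lanes. With N and S supplied, the step to 600 from 500 °Cd lies within a lane, and the steps to 400 and to 500 °Cd and the change to 600 from 300 °Cd cross lanes, so lane and stage cannot be told apart there.

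The 49 genes held 0.777% ± 0.0880 of all counts at 200 °Cd, against 0.149% ± 0.0196 at 100 °Cd in N-S- grain (SD, n = 3 each). Among N+S+ libraries their share was 0.101% ± 0.00522 at 300, 0.0288% ± 0.00223 at 400, 0.0188% ± 0.00148 at 500 and 0.00756% ± 0.00190 at 600 °Cd (SD, n = 3 each). In N-S- grain it was 0.111% ± 0.0145, 0.0277% ± 0.00231, 0.0145% ± 0.000606 and 0.00868% ± 0.00304 at the same 4 stages (SD, n = 3 each). At each step of the N+S+ series the libraries of the later stage all lay below those of the earlier one. The share differed by -0.0722 percentage points between 400 and 300 °Cd, by -0.00998 between 500 and 400 °Cd, by -0.0113 between 600 and 500 °Cd and by -0.0935 between 600 and 300 °Cd. Each difference had a two-sided exact permutation p of 0.1, the smallest that 3 libraries against 3 allow, and 0.1 again after Benjamini-Hochberg adjustment over the 4 comparisons, so none could pass 0.05.

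**Figure D1:**
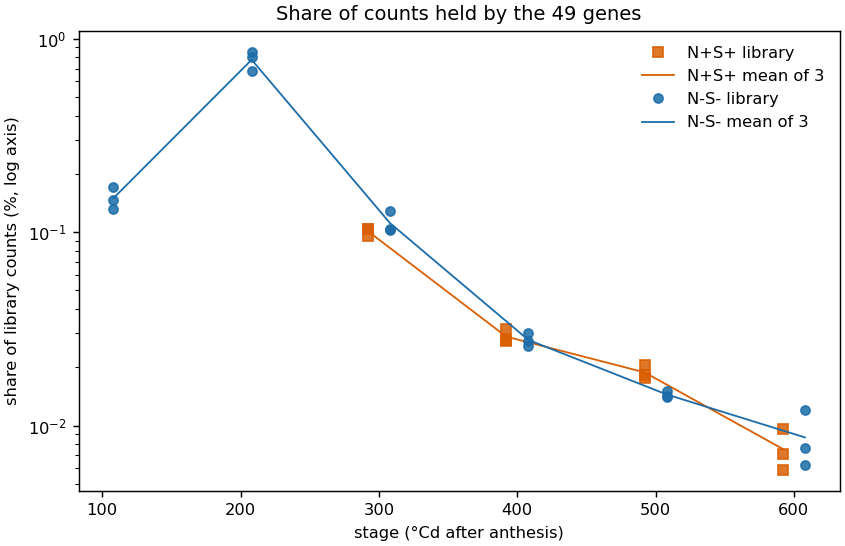
Share of each library's counts held by the 49 genes (%, log axis) against stage (°Cd after anthesis). Squares are N+S+ libraries, circles N-S- libraries, and lines join means of 3. The share is highest at 200 °Cd, where the genes were chosen, and falls at each later stage in both treatments.

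At 200 °Cd the counts were spread over many members: the 5 highest held 30.6% of the members' counts and the 10 highest 51.7%. Between replicates the level at 200 °Cd had a coefficient of variation of 13.6% in the median gene and 2.05% to 61.6% over all. For every member the 3 libraries of 200 °Cd lay above the other 15 N-S- libraries, as they did for 2.97% of all tested genes, a contrast that the rule used. They also lay above all 12 N+S+ libraries for all 49 members and for 11.3% of tested genes, and here too the level at 200 °Cd had entered the rule.

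The sharpest peak belonged to TmLoc033922, a gene of 635 bases with a ratio of 46.1. Its level was 3.20, 3.53 and 4.47 CPM at 100 °Cd, 234.4, 207.5 and 191.3 CPM at 200 °Cd, and 2.76, 3.85 and 3.69 CPM at 300 °Cd in N-S- grain. In N+S+ grain it was 4.78, 3.43 and 3.82 CPM at 300 °Cd, and no library had a count at 400 °Cd. This gene was thus low in all 6 flanking N-S- libraries and in all N+S+ libraries, and high in the 3 libraries of 200 °Cd alone. TmLoc038245, of 510 bases and with a ratio of 45.5, had 267.1, 277.0 and 156.8 CPM at 200 °Cd. In N+S+ grain it had 3.89, 1.25 and 2.55 CPM at 300 °Cd, and in neither treatment did it have a count after 300 °Cd. Its replicates at 200 °Cd differed more than those of TmLoc033922, and the lowest of them still lay far above every library of another stage.

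TmLoc033414, of 1829 bases, had the highest level at 200 °Cd, 474.8, 425.5 and 373.4 CPM. It was present before and after the peak too, with 92.8, 69.5 and 94.0 CPM at 100 °Cd and, in N+S+ grain, 55.3, 49.6 and 62.4 CPM at 300 °Cd. TmLoc028344, of 358 bases, had 412.0, 419.4 and 332.0 CPM at 200 °Cd, and in N+S+ grain 10.8, 16.8 and 16.9 CPM at 300 °Cd. Divided by length, TmLoc028344 was the most abundant member, at 1083 CPM per kilobase, against a median of 76.0 and a lowest value of 10.2 CPM per kilobase over the 49.

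**Figure D2:**
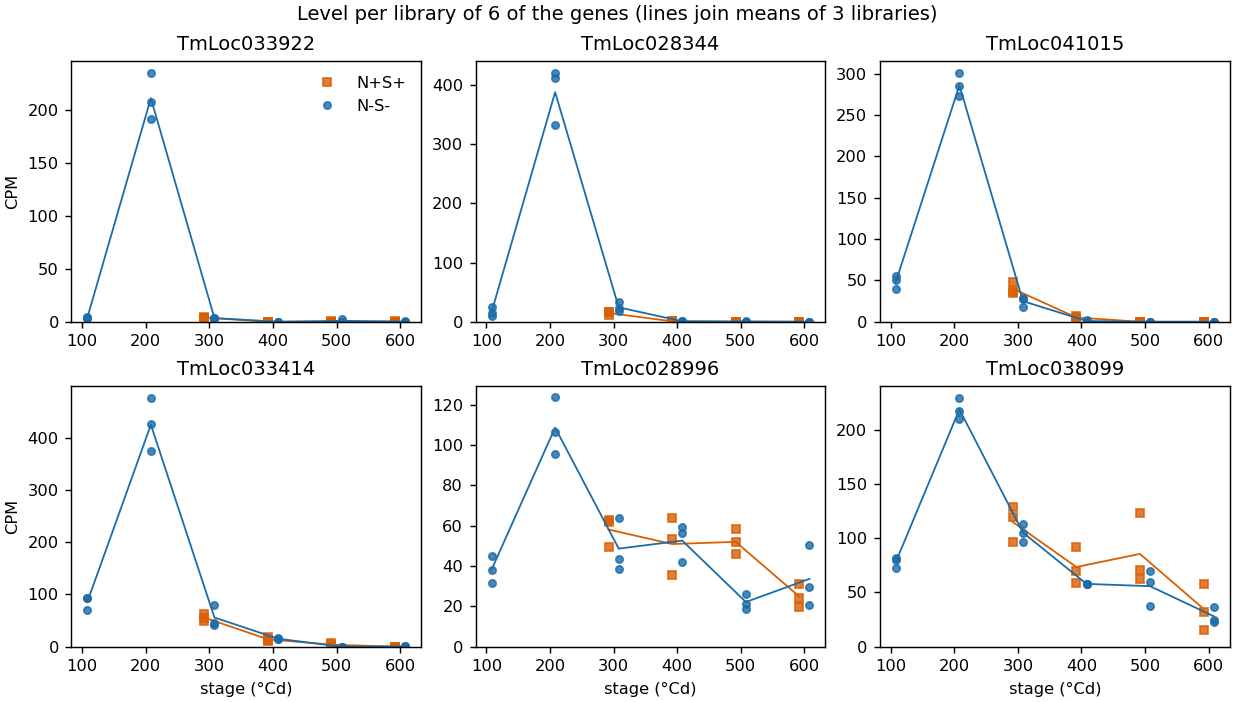
Level (CPM) in each library of 6 of the genes against stage (°Cd after anthesis), squares for N+S+, circles for N-S-, with lines through means of 3 libraries. TmLoc033922, TmLoc028344, TmLoc041015 and TmLoc033414 are near 0 at 600 °Cd, while TmLoc028996 and TmLoc038099 keep means of 24.9 and 34.9 CPM in N+S+ grain.

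The genes differed in what they did on either side of the peak. For 22 of them the next highest N-S- stage was 100 °Cd, for 26 it was 300 °Cd, and for 1, TmLoc028996, it was 400 °Cd. At 100 °Cd the level was 12.3% of that at 200 °Cd in the median gene, with a range of 0.281% to 47.7%. At 300 °Cd it was 18.2% in N+S+ grain, with a range of 0.462% to 80.1%, and 15.3% in N-S- grain. Just 8 members were under 10% of their peak at both 100 and 300 °Cd in N-S- grain, and the others kept 10% or more on at least one side of the peak.

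In the 22 genes whose next highest stage was 100 °Cd, the median level at 100 °Cd was 31.2% of the peak, and at 300 °Cd it was 7.38% in N+S+ grain, against 5.02% in N-S- grain. An example is TmLoc040532, of 375 bases, with a mean of 43.5 CPM at 100 °Cd, 105.1 at 200 °Cd and, in N+S+ grain, 1.75 CPM at 300 °Cd. In the 26 genes whose next highest stage was 300 °Cd, the median was 2.82% at 100 °Cd, and at 300 °Cd it was 25.7% in N+S+ grain, against 30.9% in N-S- grain. An example is TmLoc030285, of 1543 bases, with a mean of 0.312 CPM at 100 °Cd, 39.7 at 200 °Cd and, in N+S+ grain, 31.8 CPM at 300 °Cd. Members under 10% on both sides are included in these groups, which the next highest stage alone defines. Both examples were chosen after their values were seen, and the division itself uses N-S- values at 100 and 300 °Cd. The N+S+ libraries of 300 °Cd, which it did not use, showed the same order of the groups with overlap. Their range was 0.462% to 42.8% of the peak in the group of 22 and 0.792% to 80.1% in the group of 26. These percentages are also taken of the N-S- level at 200 °Cd. Levels at 300 °Cd were alike in both treatments across members (Pearson r = 0.975), so this order is no independent check of the division. Of the 22 genes, 10 were under 5% in N+S+ grain at 300 °Cd, and of the 26 genes 4. No test was made of this difference.

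**Figure D3:**
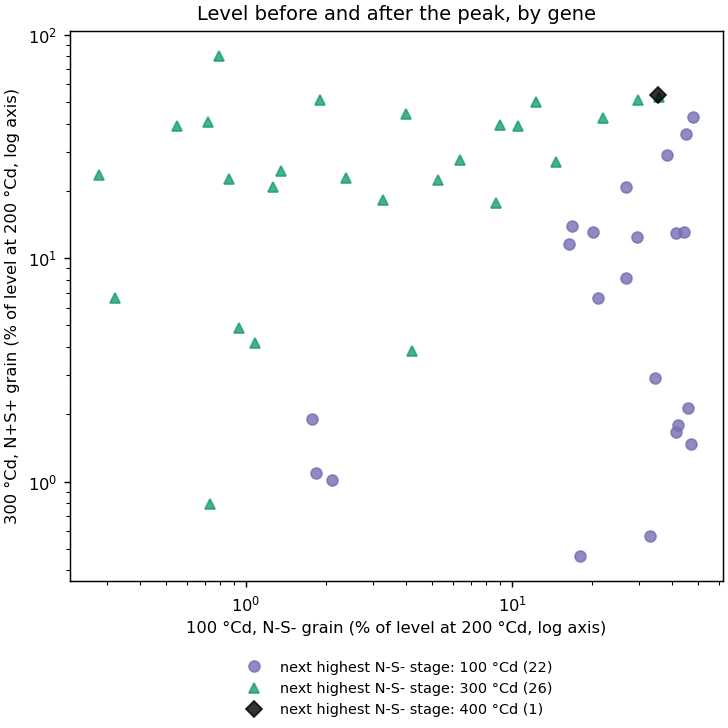
Each of the 49 genes by its level at 100 °Cd in N-S- grain (horizontal) and at 300 °Cd in N+S+ grain (vertical), both as a percentage of its mean at 200 °Cd on log axes. Circles have 100 °Cd, triangles 300 °Cd and the diamond 400 °Cd as next highest N-S- stage. The triangles spread from 0.281% upwards at 100 °Cd, and most of them lie above 10% at 300 °Cd.

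The genes were shorter, at the median, than those they were drawn from. Their deposited length had a median of 852 bases (285 to 5355), against 1470 bases in the pool and 1182 bases over all genes of the complete tables. Of the 49, 21 (42.9%) were under 600 bases, against 17.3% of the pool. The 3438 pool genes with a mean of at least 20 at 200 °Cd, which the rule on level also admits, had a median of 2448.5 bases, and 7.16% of them were under 600. Length took no part in the rule, and the difference was not tested. The median percentage of a gene's length given as covered was 72.6 for the members and 67.0 for the pool, and 11 members were covered in full. The longest members were TmLoc029331 at 5355 bases and TmLoc028996 at 4449, and the shortest TmLoc030751 at 285 and TmLoc031400 at 320. The genes with 100 and with 300 °Cd as next highest stage had median lengths of 771 and 760 bases. The closest identifiers among the members, TmLoc037898 and TmLoc037902, are 4 apart, and what that means on a chromosome is not given in the sources used here.

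Nearly all of the genes went on falling between 300 and 600 °Cd in N+S+ grain, most of them to no count at all. The N+S+ libraries had no part in choosing the members, so changes among their stages could be tested. The filter on low counts is the exception, since it used the libraries of 200 °Cd too. Fits to the compared groups alone, given with each change, do not use those libraries. At 600 against 300 °Cd, 46 of the 49 genes were lower in the edgeR quasi-likelihood test at a Benjamini-Hochberg adjusted p under 0.05, against 20.8% of the 16789 tested genes, and none was higher, against 17.5%. None was higher at an unadjusted p under 0.05 or with DESeq2 either. The groups did not overlap for 46 members, as for 27.2% of tested genes. No count was left at 600 °Cd for 27 of the 49. Over the 46 members with more than 3 counts at 300 °Cd, the median change was 22.4-fold lower, a log2 difference of -4.49, with the 24 that had no count at 600 °Cd set at their bound. The median fitted log2 fold change, another measure, was -5.95 over the 49 members and -0.06 over all tested genes. All 49 had passed the filter on low counts through their level at 200 °Cd, the level by which they were chosen. A fit to the libraries of 300 and 600 °Cd in N+S+ grain alone kept 33 members and called all 33 lower, against 2871 of the 13600 genes it tested.

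The fall was largest, by fitted fold change, in TmLoc041015, of 571 bases. It had no count in any library at 600 °Cd, against 36.8, 34.6 and 48.4 CPM at 300 °Cd in N+S+ grain. That made it at least 103.1-fold lower, taking 3 counts summed over its group as the floor (edgeR adjusted p = 5.05e-14). Next came TmLoc031400, with no count at 600 °Cd, against 34.4, 37.7 and 35.4 CPM at 300 °Cd (at least 92.5-fold lower, edgeR adjusted p = 6.27e-12). Both genes thus went below detection from levels that were close among replicates. The 3 genes not called were TmLoc026837, TmLoc030726 and TmLoc040978, with 3, 1 and 1 counts summed over the 3 libraries at 300 °Cd, so a further fall could not be seen at this depth. Among called members that still had counts at 600 °Cd, the smallest change was that of TmLoc028996, 2.33-fold lower. Without the 3 N-S- libraries of 500 °Cd in the fit, the test called 46 members at 600 against 300 °Cd, 33 at 400 against 300, 17 at 500 against 400 and 7 at 600 against 500 °Cd. Of the 17072 genes in that fit, 3979, 678, 627 and 1091 were called lower in the same order.

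Most of the fall in the members' share of counts was seen by 400 °Cd. At 400 against 300 °Cd in N+S+ grain, 30 members were lower by the edgeR test and 41 at an unadjusted p under 0.05, against 2.86% of tested genes called lower, and none was higher, also unadjusted and with DESeq2, against 3.45%. The groups did not overlap for 42 members, against 13.7% of tested genes. Over 46 members the median change was 4.63-fold lower, a log2 difference of -2.21 with genes without counts at their bound. The median fitted log2 fold change was -2.80 over the 49 members and -0.02 over all tested genes. The largest fitted falls were those of TmLoc029331 and TmLoc027033. TmLoc029331 had no count at 400 °Cd, against 4.78, 6.24 and 4.14 CPM at 300 °Cd (at least 9.00-fold lower, edgeR adjusted p = 0.00128). TmLoc027033 had none at 400 °Cd, against 5.38, 6.86 and 2.55 CPM at 300 °Cd (at least 8.78-fold lower, edgeR adjusted p = 0.00213). The call of TmLoc027033 was lost without replicate 1 (edgeR adjusted p = 0.0591). A fit to the compared groups alone kept 32 members and called 25, against 561 lower of the 12737 genes it tested. That fit kept TmLoc029331 and not TmLoc027033.

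At 500 against 400 °Cd, 12 members were lower by the edgeR test, and 23 at an unadjusted p under 0.05, against 2.79% of tested genes called lower. None was higher, also unadjusted and with DESeq2, against 3.28%. The groups did not overlap for 15 members, against 10.8% of tested genes. By then 25 members had no count in any N+S+ library, and at 400 °Cd 15 had none. The median change over the 32 members with more than 3 counts at 400 °Cd was 3.42-fold lower, with genes without counts at their bound. TmLoc032977, of 4358 bases, had no count at 500 °Cd, against 20.6, 2.58 and 6.82 CPM at 400 °Cd (at least 19.0-fold lower, edgeR adjusted p = 0.00032). One library carried most of its counts at 400 °Cd, and without replicate 1 the call was lost (edgeR adjusted p = 0.0730). TmLoc041015 had no count at 500 °Cd, against 3.64, 6.71 and 5.12 CPM at 400 °Cd (at least 9.78-fold lower, edgeR adjusted p = 0.000122). Without replicate 1 or 2 the test called 6 or 7 members, against 143 of 17257 or 222 of 16893 genes called lower. A fit to the compared groups alone kept 10 members and called 4, against 561 lower of the 11588 genes it tested. TmLoc032977 and TmLoc041015 were not among those kept.

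At 600 against 500 °Cd, the step that lies within a lane, 7 members were lower by the edgeR test and 8 at an unadjusted p under 0.05, against 4.84% of tested genes called lower. None was higher, also unadjusted and with DESeq2, against 2.47%. The groups did not overlap for 7 members, against 13.3% of tested genes. At 600 °Cd 27 members had no count, so few could still fall. Only 16 had more than 3 counts at 500 °Cd, and their median change was 2.32-fold lower, with the 1 gene without counts at its bound. TmLoc033414 had 0, 0 and 0.328 CPM at 600 °Cd, against 7.33, 2.73 and 1.65 CPM at 500 °Cd. With 1 count against 23, the ratio was 31.3, with an exact 95% counting interval of 5.08 to 1289 (edgeR log2 fold change -4.60 ± 0.91 SE, adjusted p = 0.00103). TmLoc036840 had 0.482, 0 and 0 CPM at 600 °Cd, against 1.47, 4.92 and 4.41 CPM at 500 °Cd (edgeR log2 fold change -4.40 ± 1.09 SE, adjusted p = 0.00834).

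Both calls rest on few counts. That of TmLoc033414 was lost without replicate 1 (edgeR adjusted p = 0.103), and that of TmLoc036840 without replicate 2 (0.0682), without replicate 3 (0.269) and without replicate 3 of 600 °Cd alone (0.0774). Without replicate 2 the edgeR test called 4 members, against 588 of 16893 genes called lower. Without replicate 3 it called 3, against 142 of 16722. A fit to the compared groups alone kept 4 members and called 3, against 433 lower of the 12051 genes it tested. TmLoc033414 and TmLoc036840 were not among those kept.

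**Figure D4:**
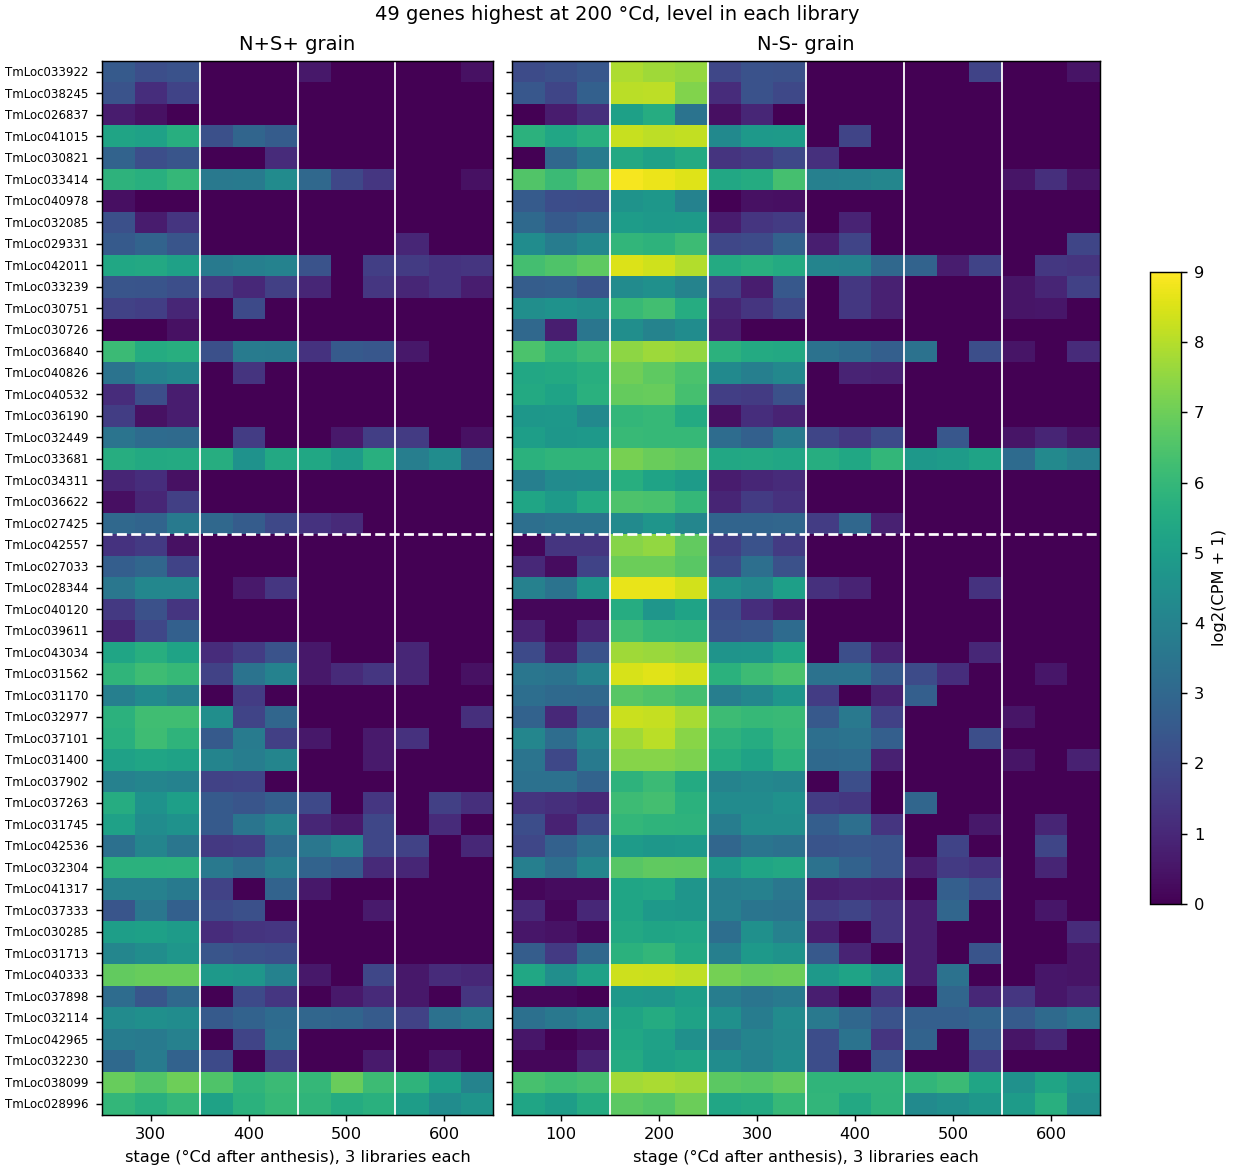
Level of the 49 genes (rows) in the 30 libraries (columns), as log2(CPM + 1), N+S+ grain left and N-S- grain right, by stage (°Cd after anthesis). Rows above the dashed line have 100 °Cd as next highest N-S- stage. The bright column is 200 °Cd, by which the genes were chosen, and most rows are dark from 500 °Cd on in both treatments.

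A small set did not disappear. With a limit of 10 CPM at 600 °Cd in both treatments, a choice made after the values were seen, 3 members remained: TmLoc033681, TmLoc028996 and TmLoc038099. They took 7.78% of the members' counts at 200 °Cd in N-S- grain. With N and S supplied they took 18.8% (300 °Cd), 47.9% (400), 81.7% (500) and 78.7% (600). The other 46 members together held 0.717% of all counts at 200 °Cd in N-S- grain, and in N+S+ grain 0.0820% (300 °Cd), 0.0150% (400), 0.00342% (500) and 0.00154% (600). The level that the whole group kept late was therefore mostly that of these 3 genes.

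TmLoc033681, of 1572 bases, had 141.6, 123.2 and 110.9 CPM at 200 °Cd. In N+S+ grain it had 48.1, 42.7 and 44.0 CPM at 300 °Cd, then 47.3, 23.2 and 42.7 (400 °Cd), 40.6, 29.5 and 50.2 (500 °Cd), and 13.5, 19.8 and 5.91 (600 °Cd). The first 3 of these stages overlapped, and all libraries of 600 °Cd lay below them. The step to 400 from 300 °Cd had an edgeR log2 fold change of -0.26 ± 0.26 SE (adjusted p = 0.691), the step to 500 from 400 °Cd 0.10 ± 0.27 (adjusted p = 0.910), and the step to 600 from 500 °Cd -1.63 ± 0.29 (adjusted p = 0.000247).

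TmLoc028996, of 4449 bases, had 61.9, 49.6 and 62.8 CPM at 300 °Cd in N+S+ grain, 35.8, 53.2 and 63.7 CPM (400 °Cd), 58.2, 45.9 and 51.8 CPM (500 °Cd), and 30.9, 19.8 and 24.0 CPM (600 °Cd). Again the libraries of 600 °Cd lay below those of the other stages, which overlapped. Its edgeR log2 fold change was -0.19 ± 0.24 SE at 400 against 300 °Cd (adjusted p = 0.782), 0.03 ± 0.25 at 500 against 400 °Cd (adjusted p = 0.988) and -1.07 ± 0.26 at 600 against 500 °Cd (adjusted p = 0.00644). TmLoc038099, of 369 bases, had 119.8, 96.3 and 128.4 CPM at 300 °Cd, 91.5, 58.9 and 70.0 CPM (400 °Cd), 62.6, 123.4 and 70.6 CPM (500 °Cd), and 57.4, 32.0 and 15.4 CPM (600 °Cd), in N+S+ grain. Here too all libraries of 600 °Cd lay below the others, the highest of them only just below the lowest of 400 °Cd. Its edgeR log2 fold change was -0.65 ± 0.25 SE at 400 against 300 °Cd (adjusted p = 0.135), 0.22 ± 0.26 at 500 against 400 °Cd (adjusted p = 0.726) and -1.33 ± 0.27 at 600 against 500 °Cd (adjusted p = 0.00131).

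These 3 genes made up 3 of the 7 calls at the last step, the one within a lane, and none of the calls at the steps before it. They had been chosen by their level at 600 °Cd, so where their falls lie follows in part from that choice. Their p-values do not take the choice into account and are given as a description. Their changes at 600 against 300 °Cd were -1.80 ± 0.28, -1.23 ± 0.25 and -1.75 ± 0.26 on the log2 scale (edgeR adjusted p = 1.62e-06, 0.000106 and 8.13e-07, for TmLoc033681, TmLoc028996 and TmLoc038099). A lower but lasting level was also seen in TmLoc032114, of 3814 bases. It had 2.41, 9.14 and 11.8 CPM at 600 °Cd, against 19.1, 21.2 and 19.8 CPM at 300 °Cd in N+S+ grain, and no overlap (edgeR log2 fold change -1.31 ± 0.37 SE, adjusted p = 0.00384). This gene, too, was picked after its values were seen, which its p-value does not take into account. In all, 6 members had a mean of at least 1 CPM at 600 °Cd in both treatments, and 21 had no count there in either.

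Levels of the members in N+S+ against N-S- grain are given as a description, because the N-S- values took part in choosing the members. At 300, 400 and 600 °Cd both treatments shared a lane. At 300 °Cd the mean was higher in N+S+ grain for 24 members and lower for 25, and 48 were within 2-fold, each mean plus 1. At 400 °Cd, of 36 members with a count in either treatment, 20 had the higher and 16 the lower mean with supply. At 600 °Cd, of 28 such members, 14 were higher and 14 lower.

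The order of the genes was also alike in both treatments. Across the 49 genes the Pearson correlation of log2(mean CPM + 1) between N+S+ and N-S- grain was 0.975 at 300, 0.952 at 400, 0.823 at 500 and 0.965 at 600 °Cd. These are correlations across genes, which are not independent replicates, over means of 3 libraries a group. At 500 and 600 °Cd most points lie at or near 0. No correlation over all tested genes stands beside these values, so the likeness cannot be called particular to the members. The N+S+ libraries all lay above the N-S- ones for 6 members and all below for 5 at 300 °Cd, against 8.87% and 8.78% of tested genes. The counts were 4 and 0 at 400 °Cd, against 7.22% and 7.55%, and 1 and 1 at 600 °Cd, against 4.87% and 5.49%. The edgeR fit to all genes also yields calls for these comparisons, and since the rule used the N-S- values, they are listed for completeness and nothing is read from them. It called 0 members at 300 °Cd (3 higher and 2 lower at an unadjusted p under 0.05), against 0.131% of tested genes in each direction. At 400 °Cd it called 0 (3 and 1 unadjusted), against 0.131% higher and 0.22% lower, and at 600 °Cd 0 (1 and 0 unadjusted), against 0.143% and 0.161%. Over the 3 stages together it called 0 (1 and 1 unadjusted), against 0.59% and 0.381%. DESeq2 called 0 in each of these 4 comparisons, while other settings called 2 members at 300 °Cd, up to 2 at 400 °Cd and 1 over the 3 stages.

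**Figure D5:**
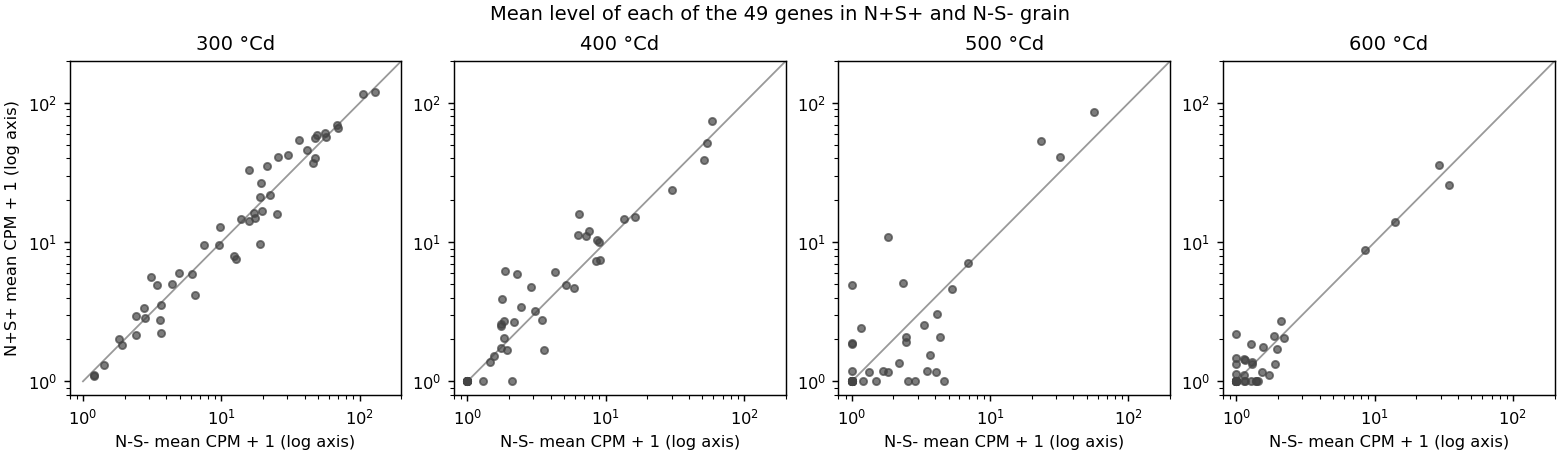
Mean level plus 1 (CPM, log axes) of each of the 49 genes in N+S+ grain (vertical) against N-S- grain (horizontal), 1 panel a stage, with the line of equal levels. The points lie along the line at 300 °Cd and scatter most at 500 °Cd, where r is 0.823 and the treatments were on different lanes.

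The largest fitted differences over 300, 400 and 600 °Cd were in genes with few late counts. TmLoc037263, of 2140 bases, had the highest fitted log2 fold change, 2.57. Its level was 46.6, 23.1 and 32.5 CPM in N+S+ grain against 19.3, 19.2 and 22.7 CPM in N-S- grain at 300 °Cd, and 4.85, 4.13 and 5.69 CPM against 2.04, 1.76 and 0 CPM at 400 °Cd. At 600 °Cd it was 0, 2.29 and 1.31 CPM in N+S+ grain against no count in N-S- grain. The N+S+ libraries lay above the N-S- ones at both of the first stages. TmLoc043034 followed with 1.43. Without replicate 1 its fit gave no usable estimate (0.31, SE 614). The lowest was TmLoc029331 with -2.06, which was -3.35 without replicate 1. Without replicate 3 its fit gave no usable estimate either (-0.29, SE 554). TmLoc042965 came next with -1.36, and it was -0.64 without replicate 2 and -2.13 without replicate 3. Each of these genes had a group without a count, so the size of its fitted difference is poorly determined.

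At 500 °Cd treatment and lane cannot be told apart and the N-S- libraries stand apart. The edgeR fit called 3 members higher and 1 lower in N+S+ grain, against 2.86% and 0.941% of tested genes, and here too nothing is read from the calls, since the N-S- values had entered the rule. DESeq2, and edgeR with no filter, each called 3 higher and 4 lower. Over all genes DESeq2 called 548 higher and 340 lower of 16789, and edgeR with no filter 600 and 200 of 24917. The 4 genes called by the edgeR fit to all libraries are named next for that reason alone, and their values are given as a description. TmLoc033414 had 7.33, 2.73 and 1.65 CPM in the N+S+ libraries and was without a count in the N-S- ones, which made it at least 6.73-fold higher. TmLoc042536 had 10.8, 16.4 and 2.76 CPM in N+S+ grain, against 0, 2.52 and 0 CPM in N-S- grain. TmLoc028996 had 58.2, 45.9 and 51.8 CPM in N+S+ grain, against 18.8, 21.4 and 26.2 CPM in N-S- grain. The N+S+ libraries all lay above the N-S- ones for 4 members, these 3 among them, against 11.5% of tested genes. They all lay below for 0 members, against 5.54%. TmLoc042965 had no count in its N+S+ libraries and 6.28, 0 and 4.54 CPM in its N-S- libraries. That made it at least 6.84-fold lower in N+S+ grain, with overlap at 0. Without replicate 1 in every group none of the 4 calls was made, without replicate 3 there were 2, and without N+S+ replicate 1 or 2 of 500 °Cd alone there were 2. The part of the lane and of the N-S- libraries in these values was not tested.

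Outside the members, the 2 genes whose profile over the 10 groups was most like the members' median profile were TmLoc024878 (Pearson r = 0.997 on log2(mean CPM + 1), n = 10 groups) and TmLoc003768 (r = 0.988, n = 10 groups). Both are listed in the table of N without S and were for that reason outside the pool. TmLoc024878 had a mean of 2.72 CPM at 100, 15.2 at 200 and 5.06 at 300 °Cd in N-S- grain, below the level that the rule asks for at 200 °Cd. TmLoc003768 had a mean of 22.0 CPM at 100, 134.4 at 200 and 19.5 at 300 °Cd in N-S- grain. Its N+S+ means were 23.7 CPM (300 °Cd), 4.50 (400) and 0.182 (500), and no count was left after that.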

How the data were processed

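Strand-specific, poly(A)-selected RNA of whole grain was sequenced in read pairs of 125 bases each (per the labels' protocols). Each table that the authors deposited gives raw counts by gene and library and, beside them, a normalized signal, the raw count divided by 1 constant per library that was set within that table. The reference used, like the counter, is not given in the sources used here, while CASAVA 1.8.4, BWA 0.7.12-r1039 and edgeR are named in the submitters' processing notes.

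The normalized signal served only to choose members. Raw counts of the 30 libraries entered one edgeR 4.0.16 quasi-likelihood model (R 4.3.3) with a mean per group, filterByExpr (16789 genes) and TMM scaling, with Benjamini-Hochberg adjustment over all tested genes and calls at an adjusted p under 0.05. DESeq2 1.42.0 was an alternative. A standard error is the size of the log2 fold change over the root of its F statistic. Intervals and the floor of 3 counts cover counting error only. No pair of replicates was identical (30 pairs, smallest chi-square per degree of freedom 2.19).

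Named genes were those with the largest ratio, level, length extremes, place at the limit and largest fitted changes. Others are said to be picked after their values were seen. Members and lists were chosen with earlier results of these data known. The tables of N without S (except for its list of genes) and S with little N were not used here.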

Additional observations from a re-analysis of the deposited data

Results flagged for a closer look

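Among the genes named by ratio, level, length, place at the limit or fitted change, 1 had treatments separated in opposite directions at different stages. The other members were not searched for this. The mean of TmLoc033414 in N+S+ grain minus that in N-S- grain was 3.91 CPM at 500 °Cd, where every N+S+ library lay above every N-S- library. It was -0.60 CPM at 600 °Cd, where every N+S+ library lay below every N-S- library. There the highest N+S+ library (0.328 CPM) and the lowest N-S- library (0.389 CPM) each held 1 count, so only their scaling separates them. The difference between these stages was not tested, the values at 600 °Cd rest on 1 count in N+S+ grain and 5 in N-S- grain, and at 500 °Cd the treatments were on different lanes.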

How the results depend on the processing

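In the changes within N+S+ grain, members called lower ranged over the omitted replicates and libraries from 42 to 46 (600 against 300 °Cd), 21 to 29 (400 against 300), 6 to 12 (500 against 400) and 3 to 7 (600 against 500). A fit to the compared groups alone called 33, 25, 4 and 3, and it kept fewer members in the test. For N+S+ against N-S- grain, that fit called 2 members at 300 °Cd, 0 at 500 °Cd, against 4 in the fit to all libraries, and 1 over 300, 400 and 600 °Cd. Over all genes it called 125 higher and 187 lower of 13527 at 300 °Cd, 19 and 30 of 11361 at 500 °Cd, and 142 and 84 of 14847 over the 3 stages. No filter gave 2 at 400, 7 at 500 and 1 over the 3 stages, DESeq2 gave 7 at 500 °Cd, and the fit without the 3 N-S- libraries of 500 °Cd, an alternative chosen after seeing the data, gave 1 over the 3 stages. Over all genes, no filter called 120 higher and 102 lower of 24917 at 400 °Cd and 180 and 123 over the 3 stages. The fit without those 3 libraries called 152 and 103 of 17072 over the 3 stages. Leaving out replicates or libraries gave 0 at 300 and 600 °Cd, 0 to 1 at 400, where the 1 came without N-S- replicate 2, and 0 to 6 at 500 °Cd. With the 60 highest genes left out of the total, the members' share was 0.121% in N+S+ grain against 0.129% in N-S- grain at 300 °Cd, 0.0337% against 0.0318% at 400 and 0.0218% against 0.0167% at 500 °Cd. The smaller total alone makes these shares higher. The rule chose 45 to 56 genes with a replicate omitted, and 52 by CPM without normalization factors, 46 by TMM-scaled CPM, 48 by DESeq2 size factors and 44 with 5 added in the ratio. No fold change of a named gene changed sign under these alternatives, but the calls at 500 °Cd went to 3 higher and 4 lower with DESeq2 and with no filter, against 3 higher and 1 lower. In all, 120 recomputed counts (within 1.5 times) or shares (within 1 SD) stayed close to the value reported, and 26 did not. For the other values printed here the cause was not tested.

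Replicate numbers did not pair the libraries: over 135 pairs with the same number, deviations from the group means correlated at a median of 0.004, from -0.086 to 0.094, none over 0.1, and 13 of 30 libraries correlated best with their own number. With the replicate number as a block, 46, 30, 11 and 7 members were lower at the 4 changes within N+S+ grain. Between treatments 0, 0, 4 and 0 members were called at 300, 400, 500 and 600 °Cd and 1 over 300, 400 and 600 °Cd. Low counts limit what can be seen from 400 °Cd on: a group with no count allows 0.310 CPM at 300, 0.561 at 400, 0.527 at 500 and 0.387 at 600 °Cd in N+S+ grain.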
